A study of Cavia porcellus with 12 samples.

Results

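The 10 genes described here encode the enzymes of the methionine cycle and of transsulfuration in liver. They were chosen by their role in the pathway, with earlier results of these data known. All 10 were among the 11896 human orthologue symbols of the guinea pig table. They are *MAT1A*, *MAT2A* and *MAT2B*, which make S-adenosylmethionine, the methyltransferases *GNMT*, *GAMT* and *PEMT*, which spend it, *AHCY*, *BHMT*, *CBS* and *CTH*. Liver RNA was sequenced from 12 female Dunkin Hartley guinea pigs, for which the labels state no age and no genetic change. The 6 controls, animals 5, 10, 31, 32, 45 and 56, were healthy and had been fed chow for 25 weeks. The 6 guinea pigs with NASH (nonalcoholic steatohepatitis), animals 2, 9, 11, 20, 41 and 65, had been fed a diet high in fat, sucrose and cholesterol for the same 25 weeks and had been chosen for bridging fibrosis, so diet and disease cannot be told apart. Each animal gave a single piece of the left lateral lobe of a liver that had not been perfused.

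The methionine cycle supplies the methyl groups of the cell. Methionine adenosyltransferase joins methionine and ATP to S-adenosylmethionine, methyltransferases pass its methyl group on and leave S-adenosylhomocysteine, and *AHCY* splits that product into adenosine and homocysteine. Homocysteine is then either methylated back to methionine, by *BHMT* with betaine or by *MTR* with folate, or drained by *CBS* and *CTH* towards cysteine, which feeds glutathione and taurine. The adult liver is the main site of this traffic, and its hepatocytes use the isozyme encoded by *MAT1A*, whereas fetal liver and tissues outside the liver use that encoded by *MAT2A*, with *MAT2B* as its regulatory subunit.

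Total counts per control ranged from 16980274 to 28636467, and per animal with NASH from 23704607 to 33091460. Levels are given in CPM, the counts of a gene scaled to a common library total with edgeR's TMM method. The TMM factors of controls (0.804 to 0.875) were all under those of NASH (1.12 to 1.24). Levels of different genes are not compared, since CPM is not corrected for gene length. A gene was taken as a DEG when its Benjamini-Hochberg adjusted p-value from edgeR's quasi-likelihood test, over all 11896 symbols, was under 0.05. Hepatocyte markers were present in every library, with *ALB* at 74883 ± 7812 CPM in controls and 30535 ± 5726 CPM in NASH (SD, n = 6 each), so the tissue label held.

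Of the 10 genes, 7 were lower in NASH, 2 were higher and 1, *PEMT*, did not pass the threshold. Over all symbols, 53.9% passed, 26.0% lower and 27.9% higher. With library size alone the members were 7 lower and 3 higher, and the symbols 911 lower and 7603 higher. The median log2 fold change of the 10 genes was −0.84, beside 0.00 over all symbols. In 8 of the 10 genes no animal with NASH overlapped with a control in CPM, which held for 33.7% of all symbols. In 7 genes all animals with NASH were below all controls (15.3% of all symbols) and in 1 they were above (18.4%). The counts of the 10 genes together made up 0.773 ± 0.082% of an animal's counts in controls and 0.430 ± 0.069% in NASH (SD, n = 6 each).

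**Figure D1:**
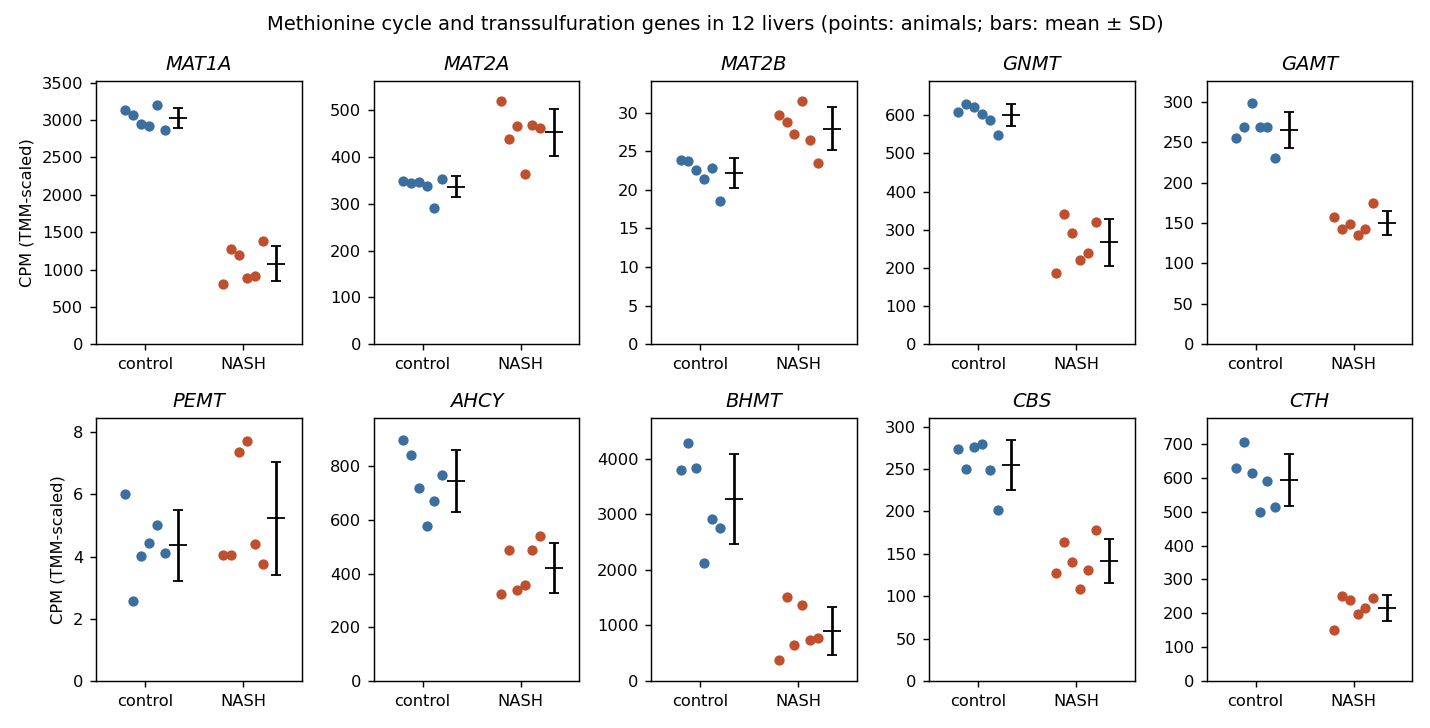
CPM (vertical axes, from 0) of the 10 genes in 6 controls and 6 guinea pigs with NASH, where points are animals and bars the mean ± SD. All NASH points lie below all control points in 7 panels and above them in the panel of *MAT2A*, while the groups overlap in *MAT2B* and *PEMT*.

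The enzymes that make S-adenosylmethionine were measured first, because the isozymes of adult liver and of other tissues are separate genes. *MAT1A*, the adult liver isozyme, lay between 2869 and 3205 CPM in controls (median 3010) and between 811 and 1379 CPM in NASH (median 1053). The highest animal with NASH was thus far below the lowest control, and each animal with NASH held between 26.8% and 45.6% of the control mean. The log2 fold change was −1.49 (SE 0.13, adjusted p = 1.67e-06 from edgeR), a 2.81-fold lower level.

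*MAT2A*, the isozyme of tissues outside the liver, went the other way. It lay between 291 and 353 CPM in controls (median 345) and between 364 and 519 CPM in NASH (median 463). The groups did not overlap, although the lowest animal with NASH, number 20, was only just above the highest control. The log2 fold change was 0.43 (SE 0.085, adjusted p = 0.000996 from edgeR), a 1.34-fold higher level. *MAT2B*, whose product binds and regulates the *MAT2A* enzyme, lay between 18.6 and 23.9 CPM in controls (median 22.7) and between 23.5 and 31.5 CPM in NASH (median 28.04). Its groups overlapped by a single animal, NASH animal 65, and its log2 fold change was 0.33 (SE 0.085, adjusted p = 0.00532 from edgeR).

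Within each animal the ratio of *MAT2A* to *MAT1A* does not depend on library scaling, and its change between groups does not depend on gene length. The log2 ratio averaged −3.17 ± 0.15 in controls (SD, n = 6), where it ranged from −3.46 to −3.02. In NASH it averaged −1.23 ± 0.36 (SD, n = 6), where it ranged from −1.58 to −0.64. The means differed by 1.94, a 3.84-fold shift towards *MAT2A*, and no test was made of this value. On the deposited rlog values, which draw genes towards their mean, the same difference was 1.26. Animal 2 had the highest ratio among guinea pigs with NASH and animal 65 the lowest.

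**Figure D2:**
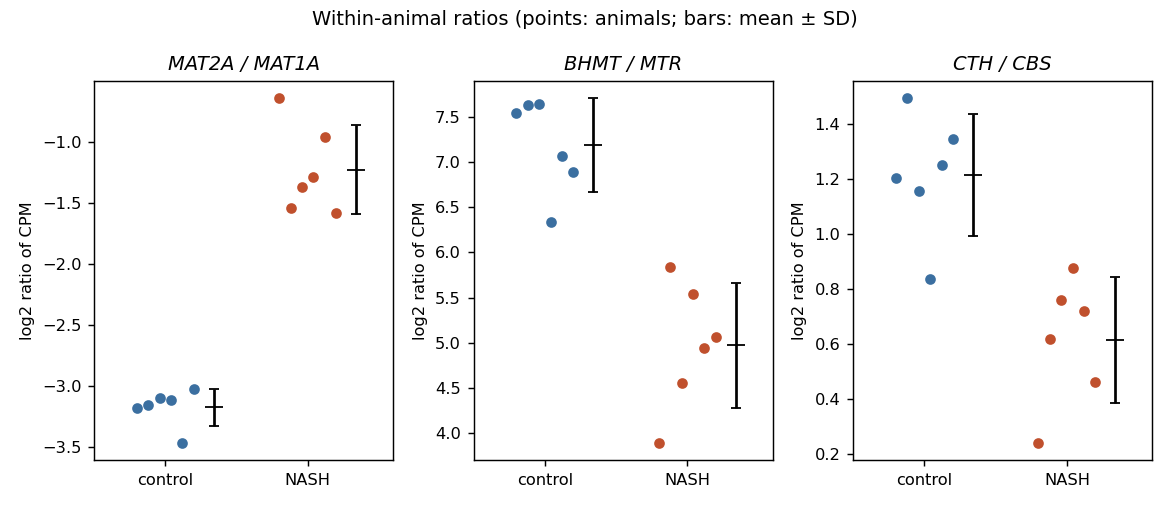
Log2 ratios of CPM within each animal for *MAT2A* over *MAT1A*, *BHMT* over *MTR* and *CTH* over *CBS*, with points for animals and bars for the mean ± SD of 6 controls and 6 guinea pigs with NASH. The groups are apart in the first and second panels, with means of −3.17 and −1.23 for *MAT2A* over *MAT1A*, and overlap in the third.

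Of the methyltransferases, *GNMT* and *GAMT* were lower and *PEMT* was not called. *GNMT* methylates glycine to sarcosine and is the liver's main buffer of excess S-adenosylmethionine. It lay between 549 and 629 CPM in controls (median 605) and between 186 and 342 CPM in NASH (median 266), and the groups did not overlap. The log2 fold change was −1.17 (SE 0.14, adjusted p = 1.31e-05 from edgeR), which is 2.25-fold lower.

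*GAMT* performs the last step of creatine synthesis. It lay between 231 and 299 CPM in controls (median 269) and between 135 and 175 CPM in NASH (median 146), so that every animal with NASH was below every control. Its log2 fold change was −0.82 (SE 0.080, adjusted p = 3.35e-06 from edgeR). *GATM*, which makes the substrate of *GAMT* and needs no methyl group, fell from 2508 ± 709 to 801 ± 266 CPM (SD, n = 6 each), a change of −1.65 on the log2 scale (SE 0.24, adjusted p = 0.00011 from edgeR).

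*PEMT* methylates phosphatidylethanolamine to phosphatidylcholine. Its row held few reads, between 50 and 122 counts in controls and between 107 and 248 counts in NASH. In CPM it lay between 2.56 and 6.00 in controls (median 4.28) and between 3.75 and 7.73 in NASH (median 4.24). The medians were close, and NASH animals 11 and 20, at 7.37 and 7.73 CPM, stood above the other 4, which were within the range of controls. Its log2 fold change, 0.27 (SE 0.24, adjusted p = 0.367 from edgeR), was not called. Without TMM factors it was 0.75 (adjusted p = 0.0134 from edgeR), and without each animal in turn it lay between 0.12 (without NASH animal 20) and 0.37 (without control 5), with an adjusted p between 0.219 and 0.685.

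*AHCY*, which removes S-adenosylhomocysteine, an inhibitor of methyltransferases, lay between 579 and 897 CPM in controls (median 745). In NASH it lay between 324 and 539 CPM (median 423). The gap between the groups was narrow, but no animal with NASH reached a control. The log2 fold change was −0.82 (SE 0.15, adjusted p = 0.000554 from edgeR).

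*BHMT*, which returns homocysteine to methionine with a methyl group of betaine, had the lowest log2 fold change of the 10 genes, −1.87 (SE 0.31, adjusted p = 0.000262 from edgeR), a 3.65-fold lower level. It lay between 2119 and 4276 CPM in controls (median 3352) and between 383 and 1508 CPM in NASH (median 751). It was also the gene that varied most among guinea pigs with NASH, with a coefficient of variation of 48.6%. Animals 9 and 20 were high within the group, at 1508 and 1360 CPM, the other 4 lay between 383 and 764 CPM, and none overlapped with controls. Relative to the control mean, animal 2 held 11.7% and animal 9 held 46.0%.

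*BHMT2*, a relative of *BHMT* that methylates homocysteine with S-methylmethionine, stood on a count row of its own and fell from 285 ± 29.4 to 121 ± 29.2 CPM (SD, n = 6 each). Its log2 fold change was −1.24 (SE 0.15, adjusted p = 1.94e-05 from edgeR). *MTR*, the folate-dependent methionine synthase, was at 22.02 ± 2.46 CPM in controls and 26.0 ± 2.29 CPM in NASH (SD, n = 6 each), 0.24 higher on the log2 scale (SE 0.087, adjusted p = 0.0342 from edgeR). This call was narrow, since it was lost without control 5, 10, 31 or 45 and without NASH animal 2, 9, 11 or 20 (adjusted p from 0.0548 to 0.0761 from edgeR). The log2 ratio of *BHMT* to *MTR* within an animal fell from 7.19 ± 0.52 to 4.97 ± 0.69 (SD, n = 6 each). Controls ranged from 6.34 to 7.64 and animals with NASH from 3.89 to 5.84, so the groups did not overlap. This ratio and that of *CTH* to *CBS* were chosen after the values had been seen and were not tested.

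Both transsulfuration enzymes were lower in NASH. *CBS*, which condenses homocysteine with serine to cystathionine, lay between 202 and 280 CPM in controls (median 262) and between 108 and 178 CPM in NASH (median 136). The groups did not overlap, and the log2 fold change was −0.85 (SE 0.12, adjusted p = 8.06e-05 from edgeR). Its count row carried the symbol *CBSL* as well, a nearly identical human copy, so the values belong to both symbols.

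*CTH*, which splits cystathionine to cysteine, lay between 499 and 706 CPM in controls (median 602) and between 150 and 252 CPM in NASH (median 227). Every animal with NASH was far below every control. The log2 fold change was −1.45 (SE 0.13, adjusted p = 1.79e-06 from edgeR), which is 2.74-fold lower. The log2 ratio of *CTH* to *CBS* was 1.21 ± 0.22 in controls and 0.61 ± 0.23 in NASH (SD, n = 6 each). Its ranges, from 0.83 to 1.49 and from 0.24 to 0.87, overlapped.

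**Figure D3:**
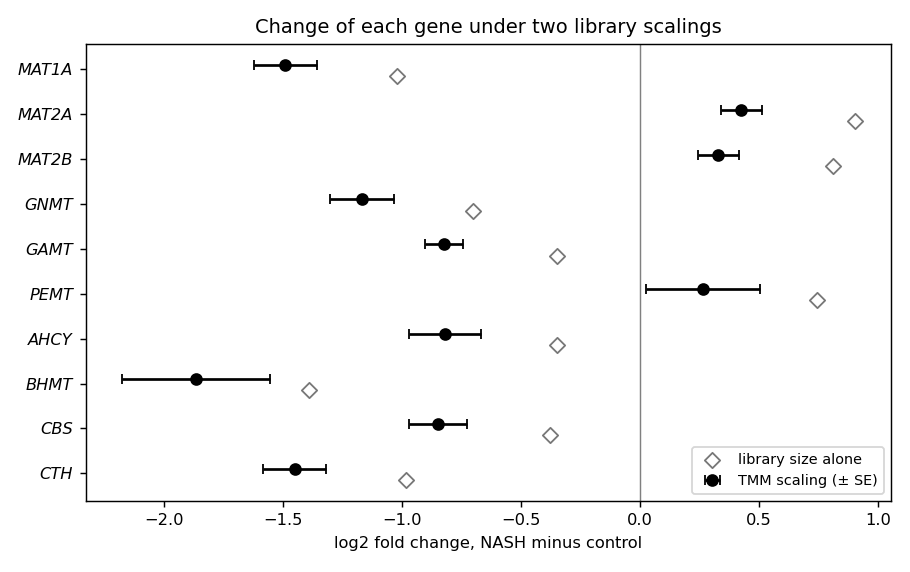
Log2 fold change (NASH minus control) of each of the 10 genes with TMM scaling (filled points, bars ± SE) and with library size alone (open diamonds). Diamonds lie to the right of the points for all 10 genes, by about the 0.48 by which the median of all symbols moved, and no gene crosses 0.

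Scaling mattered for the size of these changes. With library size alone, the median log2 fold change over all symbols moved to 0.48. *MAT1A* was then at −1.02, *GNMT* at −0.70, *AHCY* at −0.35, *CBS* at −0.38, *GAMT* at −0.35, *CTH* at −0.98 and *BHMT* at −1.39, all still past the threshold and all below that median. *MAT2A* and *MAT2B* were at 0.90 and 0.81, above it. The 9 calls also held with every other alternative that was run and with each animal left out in turn.

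Animals of both groups differed among themselves in an order that several of the genes shared in part. Among controls, animal 56 was the lowest in 4 of the 7 genes that fell and animal 32 in the other 3. The highest control was animal 10 in 3 of them and animals 5, 31, 32 and 45 in 1 each, with animal 32 the highest in *CBS*. Among guinea pigs with NASH, animal 2 was the lowest in 5 (*MAT1A*, *GNMT*, *AHCY*, *BHMT* and *CTH*), and animal 20 in the other 2 (*CBS* and *GAMT*). In *GAMT*, animal 2 was above the NASH median, at 157 CPM beside 146 CPM. Animal 65 was the highest in 4 (*MAT1A*, *AHCY*, *CBS* and *GAMT*) and animal 9 in 3 (*GNMT*, *BHMT* and *CTH*). *MAT2A* was highest in animal 2 and lowest in animal 20, and *MAT2B* was highest in animal 20 and lowest in animal 65. Across all 10 genes, the coefficient of variation was larger in NASH than in controls. *MAT1A* had the smallest in controls, 4.34%, and reached 21.99% in NASH.

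**Figure D4:**
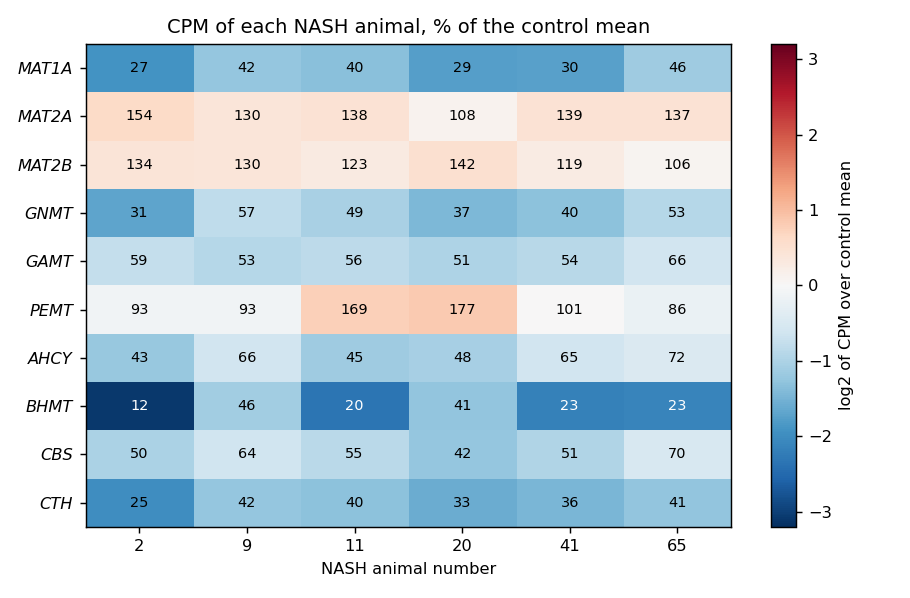
CPM of each guinea pig with NASH as a percentage of the control mean, with genes in rows, animals in columns and colour for the log2 of the same ratio. *BHMT* spans 11.7% to 46.0%, *MAT1A* 26.8% to 45.6%, and only the rows of *MAT2A*, *MAT2B* and *PEMT* hold values above 100%.

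Markers of hepatocytes and of several other cells also differed between the groups, not all in the same direction. In bulk tissue, fewer hepatocytes and less RNA of a gene per hepatocyte cannot be told apart. The table held 8 of 10 hepatocyte markers, and 7 were lower while 1 was not called. Their median log2 fold change was −0.73. With library size alone 3 were lower and 1 higher, with a median of −0.26, and *APOB*, *SERPINA1* and *FGB* lost their calls. *TTR* was at −2.20 (SE 0.17, adjusted p = 6.29e-07 from edgeR) and *ALB* at −1.29 (SE 0.14, adjusted p = 6.02e-06 from edgeR). *ASGR1*, at −0.18 (adjusted p = 0.0453 from edgeR), was above 0 with library size alone, at 0.29, and its call was lost without control 10, 31, 32 or 45 and without NASH animal 2, 9, 20 or 41 (adjusted p from 0.0553 to 0.0955 from edgeR), as well as with filterByExpr (adjusted p = 0.164) and with every row of at least 1 count (adjusted p = 0.364). *APOA1*, at −0.83, was not called by edgeR (adjusted p = 0.0597), but it was called without NASH animal 41 (adjusted p = 0.00449), by DESeq2 (adjusted p = 0.0259), by limma-voom (adjusted p = 0.0254) and by limma on the rlog values (adjusted p = 0.0258). The summed level of the 8 markers lay between 102640 and 124177 CPM in controls and between 43815 and 66779 CPM in NASH. Within the NASH group this sum was lowest in animals 20 and 2 (43815 and 44622 CPM) and highest in animals 65 and 9 (66779 and 58095 CPM). On average *ALB* made up the larger part of the sum in both groups. *ALB* alone was likewise lowest in animal 20 and highest in animal 65.

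All 4 cholangiocyte markers in the table and all 7 stellate cell markers were higher, with summed levels from 63.0 to 93.5 and from 580 to 691 CPM in controls and from 264 to 482 and from 1175 to 2425 CPM in NASH. The 3 erythroid markers were higher as well, from 57.0 to 171 CPM in controls and from 426 to 4524 CPM in NASH in sum. Animals 41 and 65, at 4524 and 3275 CPM, stood apart from the other 4 with NASH, which lay between 426 and 725 CPM. Of the endothelial markers 3 of 5 were higher and none lower, and of 4 macrophage and of 5 T cell markers 1 each was higher and 1 lower. No marker of these lists could be at 0 in all animals, since symbols needed a total of at least 200 counts. The erythroid *SLC4A1* was at 0 in the lowest control. The part of these markers in the results above was not tested.

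The steps next to the cycle were described with 7 lists of pathway genes, of which 45 of 50 genes were in the table. By edgeR's test 22 were lower, 8 were higher and 15 were not called, and the median of their log2 fold changes was −0.39. Over all symbols 26.0% were lower and 27.9% higher. With library size alone the split of the list genes was 13 lower and 18 higher, where all 11896 symbols had 911 lower and 7603 higher. Of the calls, 13 of the 22 lower and 5 of the 8 higher held in all 20 alternatives.

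**Figure D5:**
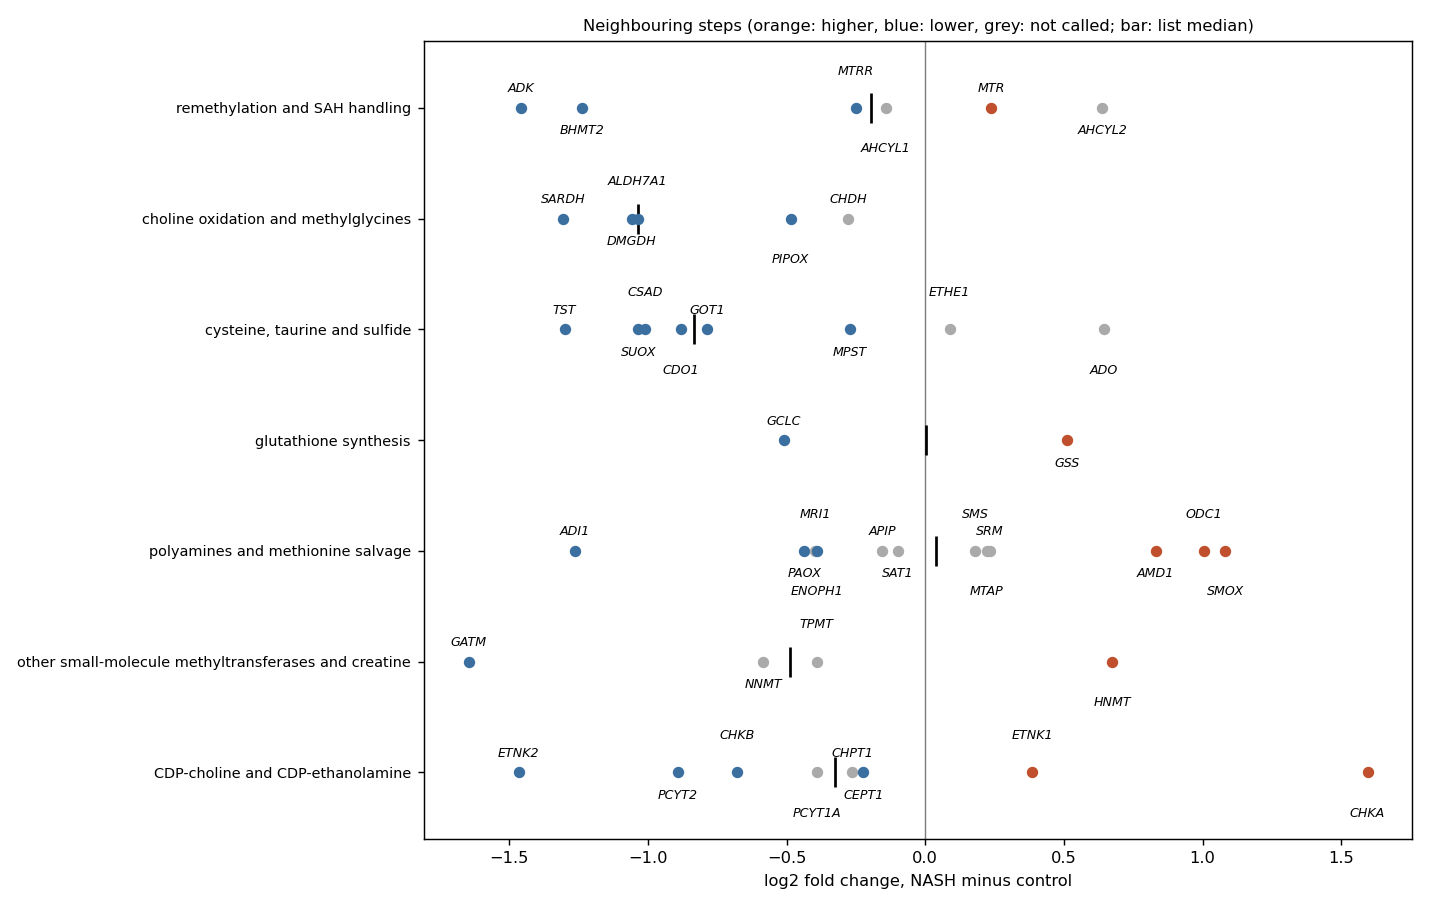
Log2 fold change (horizontal axis, NASH minus control) of the 45 genes of the 7 pathway lists, with orange for higher, blue for lower and grey for not called, and a black bar at each list's median. Choline oxidation and cysteine catabolism lie mostly to the left, down to −1.31 and −1.30, and *CHKA* lies furthest to the right at 1.59.

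Around the remethylation of homocysteine, 3 of 6 genes were lower and 1, *MTR*, was higher. Under library size alone 2 were lower and 3 higher. *ADK*, adenosine kinase, which clears the adenosine that *AHCY* releases, fell from 499 ± 143 to 182 ± 51.2 CPM (SD, n = 6 each), with a log2 fold change of −1.46 (adjusted p = 0.000136 from edgeR). *MTRR*, which reactivates *MTR*, was at −0.25 (adjusted p = 0.0236 from edgeR), a call lost without control 56 (adjusted p = 0.0521 from edgeR), with filterByExpr (adjusted p = 0.0860) and with every row of at least 1 count (adjusted p = 0.204), and it was at 0.22 with library size alone. The *AHCY*-like *AHCYL1* and *AHCYL2* had log2 fold changes of −0.14 and 0.64 and were not called. *AHCYL2* was at 4.73 ± 1.09 CPM in controls and 7.39 ± 5.99 CPM in NASH (SD, n = 6 each), and the latter mean rested on animal 2 at 19.5 CPM, without which the log2 fold change was 0.068.

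Of 5 genes of choline oxidation and of the methylglycines that follow from betaine, 4 were lower and none higher, and their median was −1.04 on the log2 scale. Under library size alone the split was 3 lower and none higher. *SARDH* and *DMGDH*, the mitochondrial dehydrogenases of sarcosine and dimethylglycine, were at −1.31 and −1.06. *SARDH* fell from 460 ± 42.9 to 186 ± 42.7 CPM (SD, n = 6 each, adjusted p = 6.34e-06 from edgeR), and dimethylglycine is the product that *BHMT* leaves behind. *ALDH7A1*, an aldehyde dehydrogenase that can make betaine, was at −1.04. *PIPOX*, at −0.48 (adjusted p = 0.0155 from edgeR), lost its call with library size alone (−0.011, adjusted p = 0.954) and with every row of at least 1 count (adjusted p = 0.0576). *CHDH*, choline dehydrogenase, was at −0.28 and not called, with 3.54 ± 1.75 CPM in controls and 2.94 ± 0.76 CPM in NASH (SD, n = 6 each). With 1 animal left out *CHDH* lay between −0.44 (without control 32) and −0.084 (without control 45).

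Downstream of *CTH*, 6 of 8 genes of cysteine, taurine and sulfide metabolism were lower and none higher, with a median of −0.83. The split became 4 lower and 2 higher (*ETHE1* and *ADO*) with library size alone. *TST*, thiosulfate sulfurtransferase, had the lowest value, −1.30, and fell from 222 ± 38.7 to 90.3 ± 6.30 CPM (SD, n = 6 each, adjusted p = 1.04e-06 from edgeR). *SUOX*, sulfite oxidase, was at −1.03. *CDO1* and *CSAD*, which lead from cysteine to taurine, were at −0.88 and −1.01 (adjusted p = 1.30e-05 and 4.53e-05 from edgeR). *GOT1* was at −0.79 and *MPST* at −0.27. Neither was called with library size alone, at −0.32 (adjusted p = 0.186 from edgeR) and 0.20 (adjusted p = 0.0959 from edgeR). *MPST* lost its call without control 31, 32 or 45 and without NASH animal 2, 9, 20 or 41 (adjusted p from 0.0563 to 0.0807 from edgeR), as well as with filterByExpr (adjusted p = 0.0946) and with every row of at least 1 count (adjusted p = 0.184). *ETHE1* and *ADO*, at 0.09 and 0.65, were not called, and *ADO* had an adjusted p of 0.0365 from edgeR without NASH animal 20. *ADO* was low, at 0.492 ± 0.179 CPM in controls and 0.792 ± 0.234 CPM in NASH (SD, n = 6 each), with as few as 3 counts in an animal.

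Both glutathione synthesis genes in the table were called, in opposite directions, but the call of *GCLC* was not stable. *GCLC*, the catalytic subunit of the first enzyme, was at −0.51 (adjusted p = 0.0243 from edgeR), a call lost without NASH animal 41 (adjusted p = 0.0509 from edgeR), with every row of at least 1 count (adjusted p = 0.0606) and with library size alone (−0.035, adjusted p = 0.863). Without control 10, the highest at 564.5 CPM, it was at −0.33 and still called (adjusted p = 0.0377 from edgeR). It was at 357 ± 105 CPM in controls and 251 ± 41.3 CPM in NASH (SD, n = 6 each). *GSS*, the second enzyme, rose from 29.2 ± 1.99 to 41.7 ± 2.54 CPM (SD, n = 6 each), with a log2 fold change of 0.51 (adjusted p = 3.14e-05 from edgeR) and no overlap between groups.

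S-adenosylmethionine also feeds polyamine synthesis. With methionine salvage, this list had 3 of 12 genes lower and 3 higher, near the 26.0% and 27.9% of all symbols. Under library size alone 1 was lower and 8 were higher. *AMD1*, which decarboxylates S-adenosylmethionine, rose from 61.2 ± 16.4 to 109 ± 19.0 CPM (SD, n = 6 each), with a log2 fold change of 0.83 (adjusted p = 0.00203 from edgeR). *ODC1*, which makes putrescine, rose by 1.01 (adjusted p = 1.72e-05 from edgeR), and neither gene overlapped between groups. *SMOX*, spermine oxidase, was at 1.08 (adjusted p = 0.0208 from edgeR), a call lost without NASH animal 41 (adjusted p = 0.0536 from edgeR). Its level was low, at 1.82 ± 0.95 CPM in controls and 3.88 ± 1.40 CPM in NASH (SD, n = 6 each), with as few as 6 counts in an animal. The spermidine and spermine synthases *SRM* and *SMS* were at 0.23 and 0.18 and not called, although *SRM* had an adjusted p of 0.0494 from edgeR without NASH animal 11.

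Of the methionine salvage genes, which recover methionine from the by-product of polyamine synthesis, *ADI1* fell from 218 ± 25.7 to 91.0 ± 13.5 CPM (SD, n = 6 each), with a log2 fold change of −1.26 (adjusted p = 1.25e-06 from edgeR). *ENOPH1* was at −0.39 (adjusted p = 0.000346 from edgeR) and at 0.087 with library size alone. *MTAP*, *MRI1* and *APIP*, at 0.22, −0.40 and −0.15, were not called. *MRI1* lay between −0.62 (without control 31) and −0.18 (without NASH animal 41) with 1 animal left out, and it was also at −0.19 without NASH animal 9. *MTAP* was called without control 5 (adjusted p = 0.00892 from edgeR), with every row of at least 1 count (adjusted p = 0.0427) and with library size alone (0.70, adjusted p = 8.38e-05). *APIP* had an adjusted p of 0.0106 from edgeR without control 56 and was at 0.32 with library size alone. *PAOX*, a polyamine oxidase, was at −0.44 (adjusted p = 0.00141 from edgeR) and at 0.040 with library size alone, and *SAT1* at −0.10 was not called.

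Among other methyltransferases, *NNMT*, which methylates nicotinamide, was at 167 ± 68.1 CPM in controls and 111 ± 37.4 CPM in NASH (SD, n = 6 each). Its log2 fold change of −0.58 was not called (adjusted p = 0.0954 from edgeR), and without NASH animal 9 it was −0.75 (adjusted p = 0.0400 from edgeR). *HNMT*, which methylates histamine, was at 0.67 (adjusted p = 0.0369 from edgeR), a call lost without control 5, 31, 45 or 56 and without NASH animal 2, 9, 11 or 20 (adjusted p from 0.0517 to 0.0778 from edgeR). It was at 3.29 ± 1.35 CPM in controls and 5.29 ± 1.11 CPM in NASH (SD, n = 6 each). *TPMT*, at −0.39, was not called, and without NASH animal 20 its adjusted p from edgeR was 0.0274. With *GATM* this list had 1 gene lower, 1 higher and 2 not called.

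Phosphatidylcholine is made without S-adenosylmethionine by the CDP-choline route, and phosphatidylethanolamine by the parallel CDP-ethanolamine route. Of the 8 genes of both routes 4 were lower and 2 higher, and with library size alone 2 were lower and 3 higher. *CHKA*, choline kinase alpha, was highest, from 5.33 ± 2.46 to 15.9 ± 5.33 CPM (SD, n = 6 each), with a log2 fold change of 1.59 (adjusted p = 0.00158 from edgeR) and overlapping groups. *ETNK1* was at 0.38 (adjusted p = 0.00926 from edgeR), while *ETNK2*, the other ethanolamine kinase of the list, fell from 134 ± 32.6 to 48.6 ± 11.1 CPM (SD, n = 6 each), with a log2 fold change of −1.47 (adjusted p = 2.94e-05 from edgeR). *PCYT2* was at −0.89 (adjusted p = 2.50e-05 from edgeR). *CHKB*, at −0.68, shared its count row with *CPT1B*, *TYMP* and *SCO2*, so its change cannot be assigned to 1 gene, and its call was lost with library size alone (−0.21, adjusted p = 0.116 from edgeR).

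*CEPT1* was at −0.22 (adjusted p = 0.0459 from edgeR) and at 0.25 with library size alone, a call lost without control 5, 10, 31, 45 or 56 and without NASH animal 2, 9, 20 or 41 (adjusted p from 0.0537 to 0.0971 from edgeR), as well as with filterByExpr (adjusted p = 0.106) and with every row of at least 1 count (adjusted p = 0.212). *PCYT1A* and *CHPT1*, at −0.39 and −0.26, were not called. Without NASH animal 11, which was at 49.8 CPM beside a NASH median of 115 CPM, the change of *PCYT1A* was smaller, −0.25, and passed (adjusted p = 0.00444 from edgeR). *CHPT1* had adjusted p-values between 0.0187 and 0.0497 from edgeR without control 5, 32 or 56 or NASH animal 65. *CHPT1* was also called by DESeq2 (adjusted p = 0.0407) and with each count row used once (adjusted p = 0.0484), and *PCYT1A*, barely, by limma on the rlog values.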

How the data were processed

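Liver mRNA of 12 guinea pigs was sequenced from stranded libraries. The authors deposited an unnormalized count table of StringTie and Ensembl gene rows, made with Trimmomatic 0.38.0, HISAT2 2.1.0 (Cavpor3.0 genome, multimapped reads ignored) and StringTie 1.3.6, and log2 values on the rlog scale of DESeq2 for symbols with a total of at least 200 counts. The count table has no symbols. Symbols were tied to count rows by computing rlog values anew and matching them to the deposited ones. All 11896 symbols matched, within 8e-07, on 11031 of 39061 rows. For CBS, PAOX, MTAP and CHKB, among the genes named, that row carried another symbol too. Groups came from the labels.

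Counts were tested in R 4.3.3 with edgeR 4.0.16 (TMM, glmQLFit with robust estimation, glmQLFTest) over all 11896 symbols, with Benjamini-Hochberg adjustment and a threshold of 0.05. The standard error is the absolute log2 fold change over the square root of F. Alternatives used DESeq2 1.42.0, limma 3.58.1 (voom, and the deposited rlog values), RLE factors, library size alone, each count row once, every row with at least 1 count, filterByExpr, and each animal left out. On simulated data with 200 of 11031 genes changed 4-fold, edgeR recovered 99.5%, and 3.86% of its calls were false. In the real data 53.9% of symbols were called and every member changed by less than 4-fold. The simulated rates therefore do not carry over to the calls given here. In all 30 pairs of animals within a group, the chi-square of counts, averaged over rows, was at least 41.9. Each animal was counted as its own replicate because every library came from a separate animal. Figures were drawn with matplotlib 3.10.9.

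The genes and lists were chosen with earlier results of these data known. All 10 member genes are named, every pathway list gene in the table is given by its log2 fold change, with CPM for the highest and the lowest of a list and for *NNMT*, *GATM*, *MTR* and *BHMT2*, and other CPM values were added after the data were seen. Some genes of these pathways are not reported here. SQOR, GCLM, INMT, AS3MT and PCYT1B were listed and are not in the table. Coordinates and sequences are not given here. P-values set the difference between groups against the spread between animals, each of which gave a single piece of liver.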

Additional observations from a re-analysis of the deposited data

Results flagged for a closer look

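Control animal 45 stood apart from the other controls in *MAT2A*, with 291 CPM where the next control was at 338 CPM. Its gap to the nearest animal was 0.747 of the whole range of controls, above Dixon's critical value for 6 animals. The log2 ratio of *MAT2A* to *MAT1A*, −3.46 in the same animal, stood apart for a gap of 0.648 of the range. The pair of values share the same *MAT2A* counts. In all, 22 groups of 6 values were checked, and chance flags about 1 in 20. Without this animal the log2 fold change of *MAT2A* was 0.39 (adjusted p = 0.0025 from edgeR).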

How the results depend on the processing

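No paired analysis was possible because the groups share no animal number. All 9 member calls kept their direction and their side of the threshold in all 20 alternatives. The number of all symbols called lay between 5838 and 8514, within 1.5 times the reported one. Library size alone, which raised the median log2 fold change of all symbols to 0.48, moved the pathway list genes to 18 higher and 13 lower, and with it the member *PEMT* passed the threshold. Under the same scaling, log2 fold changes turned positive in *MTRR* (0.22), *AHCYL1* (0.34), *CHDH* (0.19), *MPST* (0.20), *SAT1* (0.38), *PAOX* (0.040), *MRI1* (0.088), *APIP* (0.32), *ENOPH1* (0.087), *TPMT* (0.083), *PCYT1A* (0.086), *CHPT1* (0.21), *CEPT1* (0.25) and *ASGR1* (0.29), all below that median. On rlog values the change of the log2 ratio of *MAT2A* to *MAT1A* was 1.26 and that of *BHMT* to *MTR* −1.41. With each animal left out, the change of the *MAT2A* to *MAT1A* ratio lay between 1.82 and 2.01, the members called stayed at 7 lower and 2 higher, and the pathway list genes lay between 6 and 8 higher and between 19 and 23 lower. *PIPOX*, *GOT1*, *GCLC*, *CHKB*, *APOB*, *SERPINA1* and *FGB* stayed negative with library size alone but lost their calls. Of the members and pathway list genes that were called, only *GCLC* moved by over 1.5 times with 1 animal left out, to −0.33 without control 10. *PEMT*, *AHCYL2*, *CHDH*, *ETHE1*, *SRM*, *SMS*, *SAT1*, *MRI1* and *PCYT1A*, which were not called, moved as far without at least 1 animal. The lowest counts in an animal were 3 for *ADO*, 6 for *SMOX* and 50 for *PEMT*.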
